A study of Danio rerio with 246 samples.

Results

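The 10 genes described here encode enzymes of glycolysis, from hexokinase to lactate dehydrogenase: hk1, tpi1b, gapdh, gapdhs, pgk1, pgam1a, eno1a, pkma, ldha and ldhba. They were chosen by name, with the measured difference of gapdh between the neutrophil reporter and the other lines already known, so their levels across the lines are given as a description. Of the 21876 gene rows counted, 12 stand for these 10 names. Exact symbols were found for 5 of them (gapdh, gapdhs, ldha, pgam1a and hk1). The names eno1a and tpi1b each met a pair of genes listed only as ENO1 or TPI1, which are given here by identifier because the tables do not settle which of each pair is meant. The gene listed as LDHB was taken as ldhba, because ldhbb has a row of its own. The gene listed as PKM (ENSDARG00000099730) may be pkma or pkmb, and pgk1 is the gene listed as PGK2 (ENSDARG00000054191).

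The study read the transcripts of 246 cells from adult zebrafish kidney marrow, the blood-forming organ of fish. The cells were sorted one to a well by fluorescence, and their RNA was amplified by Smart-seq2 in a modified form, a plate method that reads whole transcripts. The cells came from 6 transgenic lines, each carrying a green fluorescent reporter: 47 cells of mpx_EGFP, 43 of cd41_GFPlow, 39 of Runx123_GFP, 31 of lck_GFP_rag1, 38 of lck_GFP and 48 of rag2_GFP. The mpx promoter is active in neutrophils, cd41 and the Runx1 enhancer in stem and progenitor cells and thrombocytes, lck in T and NK cells and rag2 in lymphocyte precursors and B cells; the sources give no age beyond adult and no strain, and the labels do not say what rag1 stands for in lck_GFP_rag1. Because no animal is named in the labels, a line counts as 1 sample, no test between lines was possible, and every interval covers the counting of reads or cells only.

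Glycolysis converts glucose to pyruvate in the cytosol and yields ATP without oxygen, and lactate dehydrogenase then turns pyruvate into lactate. Neutrophils hold few mitochondria and are known to draw most of their energy from glycolysis, and they store glycogen. Glyceraldehyde-3-phosphate dehydrogenase stands at the middle of the pathway, where it oxidises the triose phosphate and makes NADH. Zebrafish carry a pair of genes for it, gapdh and gapdhs. In mammals the gene named GAPDHS is a form of the testis, and the fish gene of that name is not limited to germ cells in these data.

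Cells of mpx_EGFP had a median of 457962 reads and 1606 detected genes, against medians of 667513 to 1218459 reads and 782 to 2804 genes in the other lines, and single cells ranged from 47630 to 2969770 reads. All 47 mpx_EGFP cells held at least 3 of the 12 neutrophil marker rows at 10 counts per 1000000 reads (CPM) or more, and all of them held lyz and npsn. The summed neutrophil markers stood at 66700 CPM in mpx_EGFP, 9439 in cd41_GFPlow and 86.0 to 1900 in the other 4 lines. The highest of these 4, rag2_GFP, owed nearly all of its sum to ncf1. In mpx_EGFP the erythroid markers summed to 37.6 CPM and the monocyte markers to 45.5 CPM. Endothelial markers summed to 249 CPM there, stem and progenitor markers to 229, T cell markers to 57.5 and the remaining lists to 0.627 to 28.1. All mpx_EGFP cells came from plate 4, which held no other line, so line and plate cannot be told apart. Only lck_GFP and rag2_GFP shared a plate (plate 2).

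The gene gapdh was abundant in the neutrophil reporter, present in some cd41_GFPlow cells and nearly absent in the other 4 lines, whereas gapdhs was present in every line. Summed over cells, gapdh stood at 1033 CPM in mpx_EGFP (95% exact Poisson interval 1021 to 1046), 74.3 in cd41_GFPlow, 0.0868 in lck_GFP and 0.0234 in lck_GFP_rag1. Runx123_GFP and rag2_GFP held no gapdh read among 35833548 and 31699427 reads. The level in mpx_EGFP was thus 13.9-fold that in cd41_GFPlow (interval 13.4 to 14.4). Against a floor of 3 reads in the other line it was at least 12343-fold higher than in Runx123_GFP and at least 10919-fold higher than in rag2_GFP.

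By cell, gapdh reached 10 CPM in 40 of 47 mpx_EGFP cells, or 85.1% (Clopper-Pearson interval 71.7 to 93.8%). It did so in 6 of 43 cd41_GFPlow cells, 1 of 31 lck_GFP_rag1 cells and 1 of 38 lck_GFP cells. None of 39 Runx123_GFP cells and none of 48 rag2_GFP cells reached it, which allows shares of up to 7.69% and 6.25% by a limit of 3 cells of the total, and of up to 9.03% and 7.40% by the exact interval. The neutrophil reporter therefore held 83.3% of the 48 cells with gapdh. Each of the lck_GFP and lck_GFP_rag1 cells rested on 1 read in a shallow cell (55429 and 92121 reads). Both lie under the depth of 200000 reads to which cells were thinned, so they could not be checked at that depth. All mpx_EGFP and cd41_GFPlow cells reached it, and 40 and 6 of them again held gapdh at 10 CPM or more.

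Across the 47 mpx_EGFP cells gapdh had a lowest level of 0, a median of 941 and a highest of 3029 CPM. The values fell into cells with the gene and cells with no read of it: the lowest of the 40 cells stood at 74.7 CPM, and the other 7 had 0. The 7 cells without gapdh had a median of 357337 reads and 1279 genes, against 470538 reads and 1632 genes in the 40 cells with it. Their summed neutrophil markers had a median of 35490 CPM against 72114 CPM. All 7 held lyz and npsn and 6 of them held gapdhs; the part of depth and marker level in this difference was not tested.

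**Figure D1:**
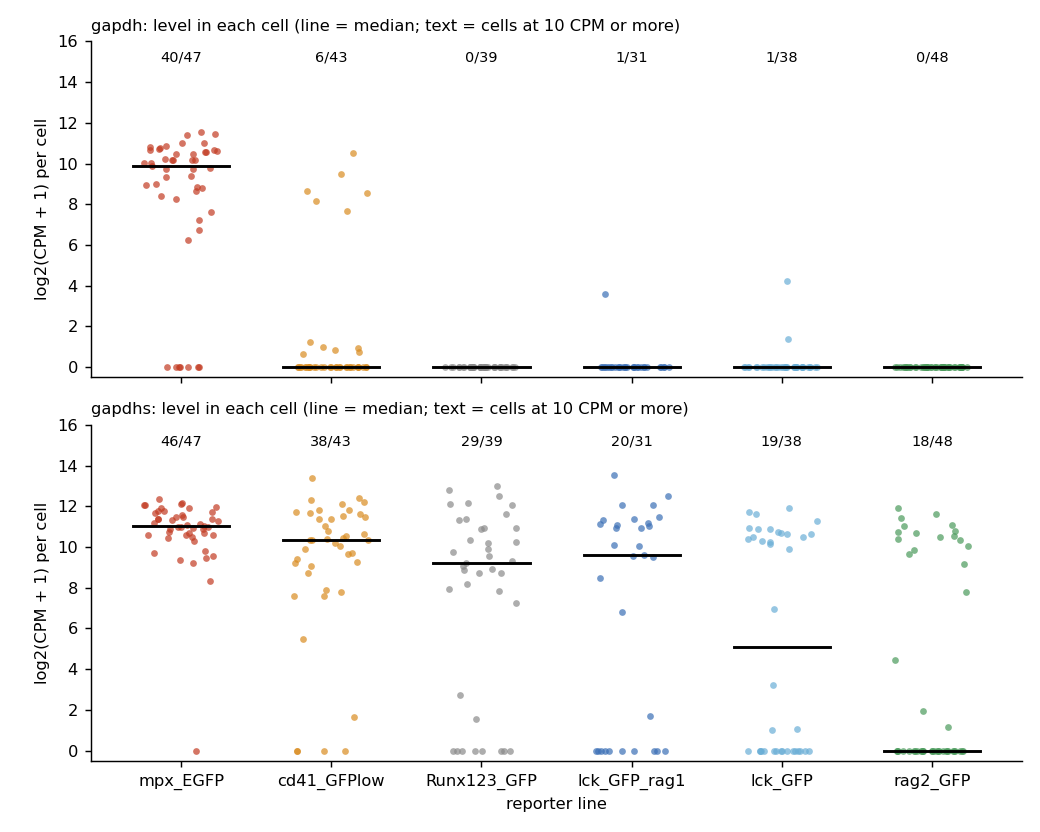
Level of gapdh (top) and gapdhs (bottom) in each cell as log2(CPM + 1), by reporter line; each point is 1 cell, black bars are medians and the text gives cells at 10 CPM or more of all cells. For gapdh the median is above 0 only in mpx_EGFP, with 40 of 47 cells, while gapdhs is found in 18 to 46 cells of every line.

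The second gene, gapdhs, formed a graded series of summed levels across the lines. Its summed level was 2333 CPM in mpx_EGFP, 1924 in cd41_GFPlow, 1627 in Runx123_GFP, 1623 in lck_GFP_rag1, 1057 in lck_GFP and 679 in rag2_GFP. The intervals of Runx123_GFP (1614 to 1641) and lck_GFP_rag1 (1611 to 1636) overlapped, and the other neighbours in this order did not overlap in counting error. From the highest line to the lowest the difference was 3.44-fold.

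The share of cells with gapdhs followed the same order: 46 of 47, 38 of 43, 29 of 39, 20 of 31, 19 of 38 and 18 of 48. In percent this ran from 97.9 in mpx_EGFP to 37.5 in rag2_GFP. Among cells that held it, the median level was 2142 CPM in mpx_EGFP and 2141 in lck_GFP_rag1, and lay between 1189 and 1581 in the other 4 lines. The lines therefore differed in the share of cells with gapdhs more than in its level within those cells. The lymphoid lines also had the fewest detected genes per cell.

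The division between the pair was measured as the share of gapdh in the reads of both genes. This share was 30.7% in mpx_EGFP (exact binomial interval 30.4 to 31.02%) and 3.72% in cd41_GFPlow (3.60 to 3.84%). It was 0.00822% in lck_GFP and 0.00144% in lck_GFP_rag1. In Runx123_GFP all 58312 reads of the pair, and in rag2_GFP all 21517, belonged to gapdhs. The gene lengths were not used here, so the share compares lines and does not say which of the genes had more transcripts.

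Within single neutrophil-reporter cells both genes were the rule. Of the 47 mpx_EGFP cells 40 held both, 6 held gapdhs alone, 1 held neither and 0 held gapdh alone. In the 40 cells with both, the gapdh share was lowest at 3.57%, had a median of 30.7% and was highest at 81.7%. In 8 mpx_EGFP cells gapdh had more reads than gapdhs. In cd41_GFPlow 6 cells held both genes, with shares of 1.81 to 35.6% (median 9.40%), 32 held gapdhs alone and 5 held neither. Across the 47 mpx_EGFP cells the correlation of gapdh with gapdhs on the log2(CPM + 1) scale was weak (Pearson's r 0.29, Spearman's rho 0.16).

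The cd41_GFPlow cells with gapdh were mostly cells with neutrophil markers. In that line 19 cells held at least 3 neutrophil marker rows and 5 of these had gapdh, against 1 of the other 24 cells. The 5 cells had 7 or 8 marker rows, a summed neutrophil level of 50598 to 69587 CPM and gapdh at 289 to 1449 CPM. The exception had gapdh at 201 CPM, 1 marker row, neutrophil markers at 26.3 CPM and gapdhs at 10915 CPM, the highest gapdhs value of its line. A further 6 cd41_GFPlow cells held 1 gapdh read each. Among these was a cell with 6 marker rows and neutrophil markers at 45172 CPM, with gapdh at 1.01 CPM. Another cd41_GFPlow cell with 6 marker rows had gapdh at 0 CPM. The gene gapdhs was found in 18 of the 19 and 20 of the 24 cells. Its median level was 3368 CPM in the 6 cells with gapdh and 1058 CPM in the other 37 cells. Across the 47 mpx_EGFP cells the correlation with the summed neutrophil markers on the log2 scale was r 0.70 and rho 0.31 for gapdh, and r 0.52 and rho 0.38 for gapdhs.

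**Figure D2:**
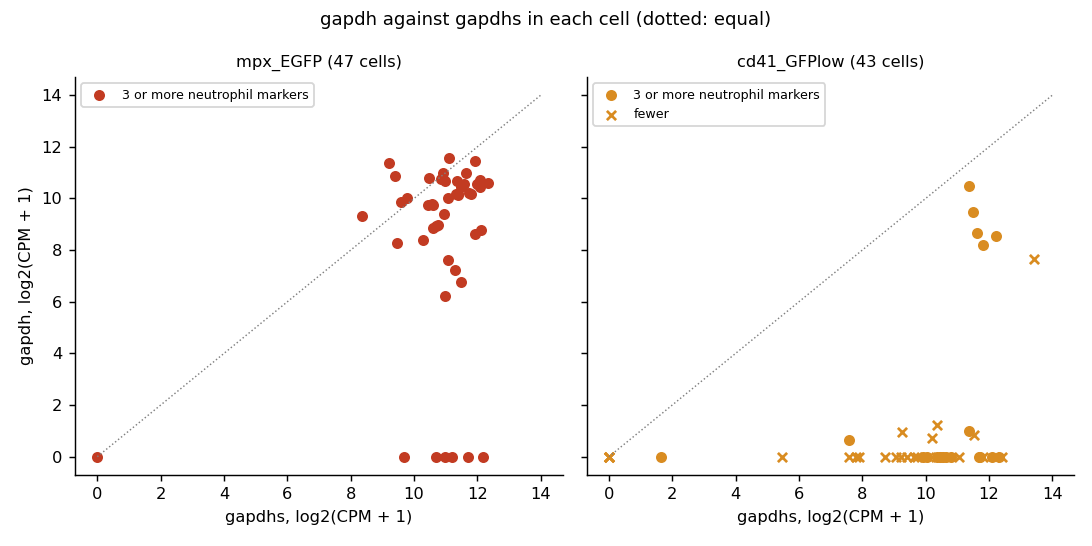
Level of gapdh against gapdhs in each cell, both as log2(CPM + 1), in mpx_EGFP (left, 47 cells) and cd41_GFPlow (right, 43 cells); filled points have at least 3 neutrophil markers at 10 CPM, crosses have fewer, and the dotted line marks equal values. In mpx_EGFP 8 cells lie above the line, and in cd41_GFPlow 5 of the 6 cells with gapdh at 10 CPM or more are filled points.

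Likeness in log2(CPM + 1) across all 246 cells was computed for 3910 genes with a symbol, and genes with clone names were left out of all ranks. The genes most like gapdh among the rest were ch25hl2 (Pearson's r 0.90), lyz (0.89), npsn (0.88), cpa1 (0.88) and abcb9 (0.87). Of these lyz encodes lysozyme and npsn the metalloprotease nephrosin, both markers of fish neutrophils. Of the other members PKM came first, at rank 147 (r 0.44), followed by gapdhs at rank 221 (r 0.36). For gapdhs the closest genes were actr3 (0.50), cotl1 (0.47), eno3 (0.46), tmsb1 (0.45) and xbp1 (0.45). Here actr3 and cotl1 encode actin regulators and eno3 an enolase. The cells of a line share a plate and differ in depth, so these values are descriptions.

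The other enzymes are given in pathway order. Hexokinase traps glucose in the cell as glucose 6-phosphate. Its member hk1 was low and found in few cells: 71.2 CPM in mpx_EGFP (8 cells), 84.7 in cd41_GFPlow (12 cells), 79.8 in Runx123_GFP (6 cells), 31.4 in lck_GFP_rag1 (1 cell), 6.86 in lck_GFP (1 cell) and 0 in rag2_GFP. The 3 non-lymphoid lines thus lay close together and above the lymphoid lines. The paralog hk2 took 54.5% of hexokinase reads in mpx_EGFP, 37.4% in cd41_GFPlow and 22.6% in Runx123_GFP. Among the lymphoid lines its share was 60.2% in lck_GFP (239 of 397 reads), 18.1% in lck_GFP_rag1 and 5 of 5 reads in rag2_GFP. At 85.2 CPM in 9 mpx_EGFP cells, hk2 exceeded the mean of the other lines (18.3 CPM) by more than 4-fold. In cd41_GFPlow (50.7 CPM, 12 cells) and Runx123_GFP (23.3 CPM, 8 cells) hk2 lay within 4-fold of mpx_EGFP.

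Triosephosphate isomerase interconverts the products of aldolase. The TPI1 gene ENSDARG00000040988 stood at 531 CPM in mpx_EGFP and 527 in lck_GFP_rag1, whose intervals overlapped, and at 204 to 379 in the other 4 lines. It was found in 34 of 47 mpx_EGFP cells and 31 of 43 cd41_GFPlow cells, but in 11 of 31 lck_GFP_rag1 cells, so the equal sums came from different numbers of cells. The second TPI1 gene, ENSDARG00000025012, had 664 reads in 1 rag2_GFP cell, 18 in 1 cd41_GFPlow cell and none in the other 4 lines.

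Phosphoglycerate kinase makes the first ATP of the pathway. The pgk1 gene did not have its highest level in the neutrophil reporter: it stood at 236 CPM in mpx_EGFP, 233 in cd41_GFPlow, 263 in rag2_GFP, 326 in lck_GFP_rag1, 356 in lck_GFP and 411 in Runx123_GFP. The lines differed by at most 1.76-fold, the smallest range among the members measured in all 6 lines. The mpx_EGFP and cd41_GFPlow values overlapped in counting error. The gene was found in 25 of 47 mpx_EGFP cells and 30 of 43 cd41_GFPlow cells, and in 5 of 48 rag2_GFP cells.

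Phosphoglycerate mutase moves the phosphate group before enolase acts. Its gene pgam1a stood at 275 CPM in mpx_EGFP, 185 in cd41_GFPlow, 183 in Runx123_GFP, 403 in lck_GFP_rag1, 56.1 in lck_GFP and 67.9 in rag2_GFP. The highest value belonged to lck_GFP_rag1, where 1 cell gave 49.7% of the reads. In rag2_GFP 1 cell gave 70.4%. By cells the order differed, with 25 of 43 in cd41_GFPlow, 22 of 47 in mpx_EGFP, 18 of 39 in Runx123_GFP and 11 of 31 in lck_GFP_rag1.

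Enolase makes phosphoenolpyruvate. After gapdh, the ENO1 gene ENSDARG00000022456 had the largest ratio of the members to the other lines, with 788 CPM in mpx_EGFP, 493 in Runx123_GFP, 390 in cd41_GFPlow, 330 in lck_GFP_rag1, 248 in lck_GFP and 99.2 in rag2_GFP. It was found in 41 of 47 mpx_EGFP cells, 31 of 43 cd41_GFPlow cells, 21 of 39 Runx123_GFP cells and 4 to 10 cells of each lymphoid line. Of the enolase reads it took 47.2% in mpx_EGFP and 69.6% in Runx123_GFP, and eno3 took nearly all of the rest in both. The other ENO1 gene, ENSDARG00000013750, reached 10 CPM in 1 cd41_GFPlow cell and did not pass the filter of 10 CPM in at least 1 line.

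Pyruvate kinase makes the last ATP and releases pyruvate. The PKM gene stood at 1454 CPM in mpx_EGFP, 1274 in lck_GFP_rag1, 761 in cd41_GFPlow, 730 in Runx123_GFP, 528 in lck_GFP and 471 in rag2_GFP. It was found in 44 of 47 mpx_EGFP cells, 33 of 43 cd41_GFPlow cells, 21 of 39 Runx123_GFP cells, 18 of 31 lck_GFP_rag1 cells, 13 of 38 lck_GFP cells and 11 of 48 rag2_GFP cells. The neutrophil reporter had both the highest sum and the largest share of cells (93.6%).

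Lactate dehydrogenase as a step was not highest in the neutrophil reporter, whose sum of 1106 CPM stood behind cd41_GFPlow (1428) and lck_GFP_rag1 (1229). That sum was 1.14-fold the mean of the other lines (968 CPM). The gene ldha, the form that in mammals prevails in muscle, stood at 274 CPM in mpx_EGFP, 366 in cd41_GFPlow, 242 in Runx123_GFP, 576 in lck_GFP_rag1, 217 in lck_GFP and 491 in rag2_GFP. The gene ldhba, of the form that prevails in mammalian heart, stood at 832, 1062, 459, 653, 665 and 109 CPM in the same lines. Their division set rag2_GFP apart: ldha took 81.8% of its lactate dehydrogenase reads, against 24.6 to 46.9% in the other 5 lines and 24.7% in mpx_EGFP. In rag2_GFP this rested on 6 cells with ldha and 4 with ldhba, of which 1 cell gave 63.7% of the ldhba reads.

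**Figure D3:**
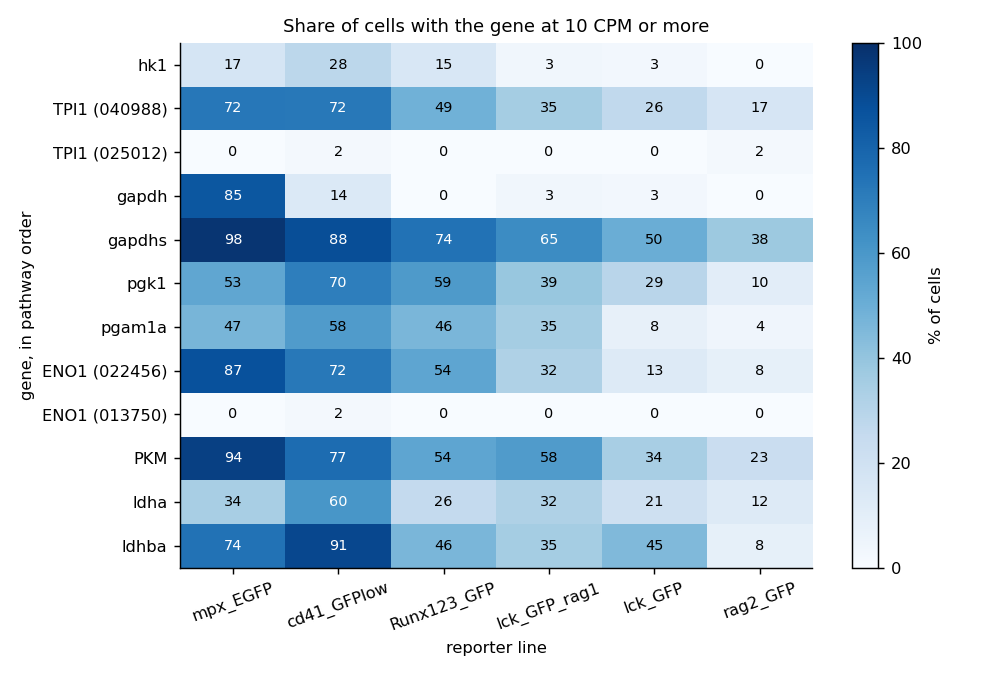
Share of the cells of each reporter line (columns) with each member (rows, in pathway order) at 10 CPM or more, in percent. The gene gapdh stands at 85% in mpx_EGFP and at 14% or less elsewhere, whereas gapdhs, PKM and the ENO1 gene ENSDARG00000022456 decline over the columns from mpx_EGFP to rag2_GFP, apart from PKM in lck_GFP_rag1.

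Counted by cell, the median mpx_EGFP cell and the median cd41_GFPlow cell each held 7 of the 12 member rows. The medians were 5 in Runx123_GFP, 4 in lck_GFP_rag1, 2 in lck_GFP and 1 in rag2_GFP, where 18 cells held none. After thinning to equal reads they were 7, 7, 5, 3.5, 2 and 1. The order of these medians among the lymphoid lines and Runx123_GFP is also that of their detected genes per cell, and the part of detection in it was not tested.

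A fixed size of 4-fold was used to describe the ratio of mpx_EGFP to the unweighted mean of the other 5 lines, on the log2(CPM + 1) scale, for genes at 10 CPM in at least 1 line. Of 12660 such genes 6.03% were higher and 39.2% lower in mpx_EGFP at that size, and the median log2 ratio of all was -1.34. Of the 12 member rows 11 were measured: gapdh was higher (log2 6.02), the TPI1 gene ENSDARG00000025012 was lower, and 9 lay within 4-fold. The lower call rested on 1 rag2_GFP cell and was lost when each gene's top cell was left out. The median of the 11 was 0.66. This contrast was known when the members were chosen, so nothing is read from these counts.

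Within 4-fold, the ratios were largest for the ENO1 gene ENSDARG00000022456 (log2 1.33), PKM (0.95), hk1 (0.80) and gapdhs (0.75). They were 0.66 for the TPI1 gene ENSDARG00000040988, 0.62 for pgam1a and 0.50 for ldhba. Only ldha (-0.47) and pgk1 (-0.43) were below 0. Under TMM factors and median-ratio size factors the median of all measured genes went from -1.34 to -0.953 and -0.903. The share of higher calls among all calls went from 13.3% to 18.6% and 19.6%. No member changed its sign, but with median-ratio size factors ldha stood at -0.0754 and pgk1 at -0.0142, close to no difference.

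The single pairs of lines share mpx_EGFP and are given side by side. Against cd41_GFPlow, 9.74% of all measured genes were at least 4-fold higher and 27.6% lower in mpx_EGFP, and of 10 measured members 1 was higher (gapdh) and 0 lower. Against Runx123_GFP the shares of all genes were 13.8% and 33%, and again 1 of 10 members was higher and 0 lower. Against lck_GFP_rag1 they were 31.8% and 25.6%, with gapdh higher and 0 lower. In these 3 pairs gapdh alone passed the size, and the other members lay between 0.475-fold (ldha against lck_GFP_rag1) and 2.39-fold (the ENO1 gene ENSDARG00000022456 against the same line).

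The other lymphoid lines lay further away. Against lck_GFP 30% of all genes were higher and 26% lower, and 3 of 10 members were higher: gapdh, hk1 (10.4-fold) and pgam1a (4.90-fold). Against rag2_GFP 24.8% were higher and 34.2% lower, and 5 of 11 members were higher: gapdh, hk1, the ENO1 gene ENSDARG00000022456 (7.95-fold), ldhba (7.64-fold) and pgam1a (4.05-fold). Of these, pgam1a rested on 3 lck_GFP and 2 rag2_GFP cells, and hk1 on 1 lck_GFP cell and no read in rag2_GFP. The ENO1 gene ENSDARG00000022456 and ldhba each reached 10 CPM in 4 of 48 rag2_GFP cells. There the top cell gave 41.9% of the reads of this ENO1 gene and 63.7% of those of ldhba. The TPI1 gene ENSDARG00000025012 was lower against rag2_GFP. Outside the pair with rag2_GFP, the share of members higher was close to or below that of all genes.

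**Figure D4:**
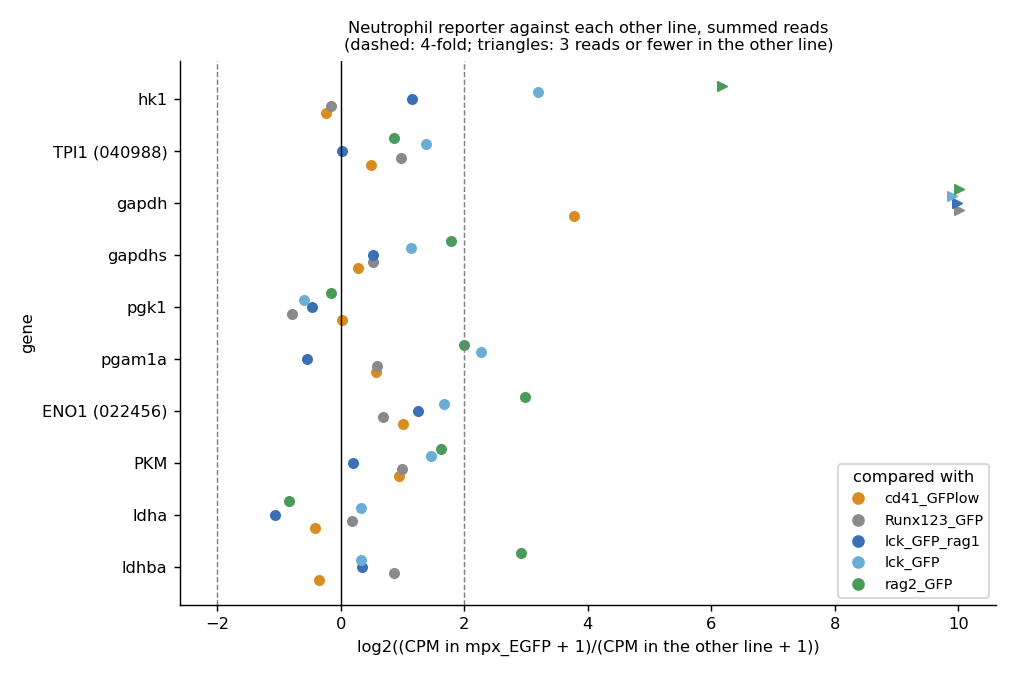
Log2 ratio of mpx_EGFP to each of the other 5 lines (colours), from summed reads with 1 CPM added, for 10 member genes; dashed lines mark 4-fold and triangles mark 3 reads or fewer in the other line. The points for gapdh lie at 3.78 against cd41_GFPlow and near 10 against the other 4 lines, while those of gapdhs lie between 0.28 and 1.78.

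The wider pathway list held 34 gene rows of glycolysis, of which 24 were measured, members included. Their reads summed to 12784 CPM in mpx_EGFP, 1.28% of all reads, and to 3486 CPM in rag2_GFP to 7522 in lck_GFP_rag1. Against the mean of the other lines 3 of the 24 were higher by 4-fold, gapdh and hk2 among them, and 5 were lower. Of all measured genes 6.03% were higher and 39.2% lower. The median ratio (log2) of the list was 0.64. The 5 lower genes were each at 10 CPM in at most 6 cells of any line: 3 of them encode phosphofructokinase, and the others were eno4, found in 1 rag2_GFP cell, and the second TPI1 gene.

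Summed by step, mpx_EGFP ranked first of the 6 lines in hexokinase, glucose phosphate isomerase, aldolase, triosephosphate isomerase, glyceraldehyde phosphate dehydrogenase, enolase and pyruvate kinase. For triosephosphate isomerase the rank rested on 531 CPM against 527 in lck_GFP_rag1, which overlapped in counting error. The ratios to the mean of the other lines were largest for aldolase (3.32-fold), glucose phosphate isomerase (3.21-fold) and enolase (2.83-fold). Aldolase, which splits fructose 1,6-bisphosphate, was led by an ALDOA gene (ENSDARG00000011665) at 2540 CPM against a mean of 734. For glyceraldehyde phosphate dehydrogenase the ratio was 2.41-fold with both genes and 1.69-fold for gapdhs alone.

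The neutrophil reporter was not first in 4 steps. Phosphofructokinase, the main control point of the pathway, had rank 4 at 94.6 CPM against a mean of 102. Phosphoglycerate kinase had rank 5, phosphoglycerate mutase rank 2 and lactate dehydrogenase rank 3. A PFKP gene (ENSDARG00000028000) took 83.6% of the phosphofructokinase reads in mpx_EGFP, where 9 cells held it at 10 CPM or more. Its share was 73.4% in lck_GFP_rag1, 63.1% in lck_GFP, 42.6% in cd41_GFPlow, 27.6% in Runx123_GFP and 0% in rag2_GFP. In Runx123_GFP a PFKM gene (ENSDARG00000014179) took 60.4%, with 3 cells at 10 CPM or more.

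Pathways that branch from glycolysis were also summed. The pentose phosphate pathway, which supplies the NADPH that the neutrophil oxidase uses, had 2 higher genes and 1 lower among 6 measured. Over all measured genes 6.03% were higher and 39.2% lower. The median of the list's log2 ratios was 1.36. The gene pgd, for phosphogluconate dehydrogenase, was higher (1035 CPM against a mean of 157, in 37 of 47 cells), and rpia was lower. Against cd41_GFPlow alone 0 of 6 were higher by 4-fold, against 9.74% of all genes.

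Glycogen genes had the largest median of the 6 pathway lists, 2.13, with 6 of 10 measured genes higher, against 6.03% of all genes, and 0 lower. The 6 were gys1 (glycogen synthase, 99.1 CPM against 17.4), both GYG1 genes (glycogenin), pygb (a glycogen phosphorylase, 304 against 49.8), pgm1 (phosphoglucomutase, 310 against 35.1) and a UGP2 gene (252 against 60.9). One GYG1 gene stood at 614 CPM in 35 mpx_EGFP cells against a mean of 130, and the other, ENSDARG00000059391, reached 10 CPM in 1 mpx_EGFP cell. Against single lines 4 of 10 were higher in the pair with cd41_GFPlow, 5 of 9 in those with Runx123_GFP and lck_GFP_rag1, 7 of 9 with lck_GFP and 7 of 10 with rag2_GFP. Of all genes 9.74%, 13.8%, 31.8%, 30% and 24.8% were higher in these 5 pairs, in the same order. In the pair with cd41_GFPlow 1 of 10 glycogen genes was lower, and 0 were lower in each other pair. Between 25.6% and 34.2% of all genes were lower in the 5 pairs.

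Against the mean of the other lines, transport, pyruvate dehydrogenase and regulator genes showed no common direction. Their counts stand beside 6.03% of all measured genes higher and 39.2% lower, as does that of the glycolysis list. Of 10 measured transporters 2 were higher, the glucose transporter slc2a3b (38.8 CPM in 11 mpx_EGFP cells against a mean of 6.56) and an SLC16A3 gene (85.0 against 3.82, in 8 cells), which exports lactate in mammals. The other SLC16A3 gene lay within 4-fold (48.4 CPM against a mean of 39.3) and stood at 137 CPM in lck_GFP. In lck_GFP slc2a3b stood at 14.7 CPM, within 4-fold of mpx_EGFP. The transporters slc2a1, slc2a6, slc16a1 and slc16a7 were lower, each in 9 or fewer cells of any line. Of these, slc16a7 was at 0 CPM in every line but rag2_GFP (244 CPM, 2 cells), and slc16a1 at 0 CPM in the lymphoid lines. In Runx123_GFP, lck_GFP and rag2_GFP slc2a6 stood at 0.0279, 0 and 0 CPM. Only in Runx123_GFP did summed slc2a1 pass 10 CPM (12.2 CPM). For pyruvate dehydrogenase and its kinases and phosphatases 3 of 11 were higher (pdhb, a PDK2 gene and pdp1) and 1 was lower. The lower gene was the other PDK2 gene, at 10 CPM in 1 cd41_GFPlow cell and 1 lck_GFP_rag1 cell. The higher PDK2 gene stood at 141 CPM in mpx_EGFP and 101 in lck_GFP_rag1.

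Among 19 measured regulators 1 was higher and 5 lower, neither share above the 6.03% and 39.2% of all genes. The higher gene egln3, an oxygen-sensing prolyl hydroxylase, stood at 45.1 CPM in mpx_EGFP (4 cells at 10 CPM or more) and at 44.6 CPM in rag2_GFP (2 cells). The lower genes were vhl, hif1aa and hif1al2 of the hypoxia pathway, and both MYC genes. Of these vhl was at 10 CPM in only 1 lck_GFP_rag1 cell and 1 rag2_GFP cell, with 0 CPM in cd41_GFPlow, Runx123_GFP and lck_GFP as in mpx_EGFP. The lower gene hif1aa was at 10 CPM in 9 Runx123_GFP cells and in no cell of another line. The related hif1a stood at 381 CPM in mpx_EGFP against a mean of 139, within 4-fold. The lower gene hif1al2 stood at 40.8 CPM in Runx123_GFP (6 cells), and at 0 CPM in lck_GFP and rag2_GFP. The MYC gene ENSDARG00000007241 stood at 4.52 CPM in mpx_EGFP and at 0 to 0.130 in the lymphoid lines. Its lower call came from Runx123_GFP (105 CPM) and cd41_GFPlow (32.8 CPM). The other MYC gene stood at 3.60 CPM in mpx_EGFP and at 38.9 to 130 in the other lines. Single pairs differed. Against lck_GFP_rag1 alone 9 of 15 measured regulators were higher and 2 lower, beside 31.8% and 25.6% of all genes. Of 6 transporters 4 were higher and 1 lower in that pair. Against lck_GFP alone 2 of 15 regulators were higher and 3 lower, beside 30% and 26% of all genes.

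**Figure D5:**
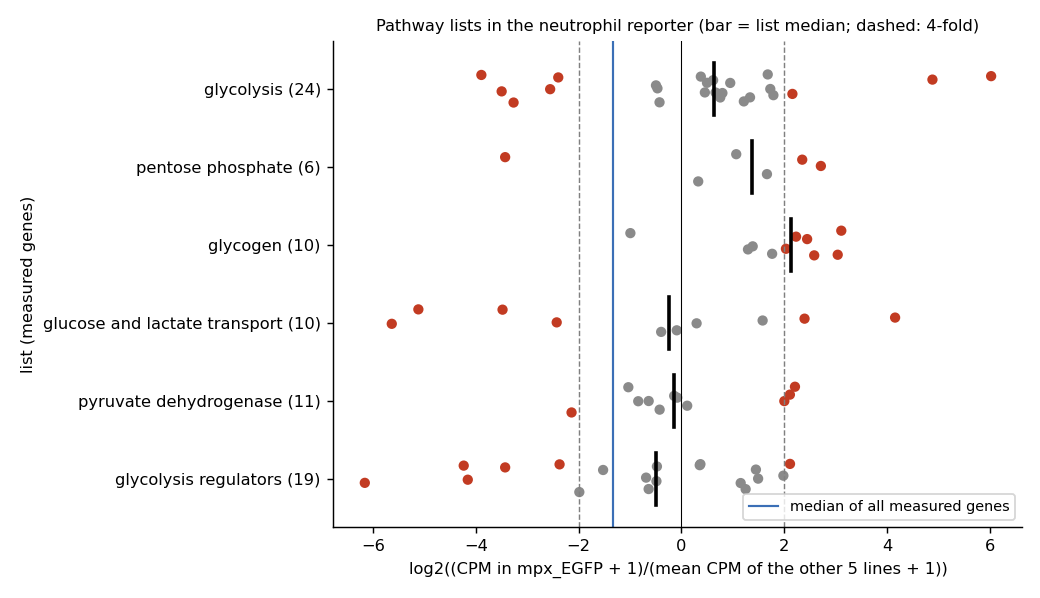
Log2 ratio of mpx_EGFP to the mean of the other 5 lines for the measured genes of 6 lists (points, red at 4-fold or more), with list medians as black bars and the median of all 12660 measured genes as a blue line at -1.34. The medians are 2.13 for glycogen, 1.36 for the pentose phosphate pathway and 0.64 for glycolysis, and the point at 6.02 is gapdh.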

How the data were processed

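Per the labels, single cells were sorted into plates and amplified by a modified Smart-seq2 protocol. Per the submitters' processing notes the tools were STAR, Picard and featureCounts and the build GRCz10; versions and order are not given in the sources used here. The authors deposited raw read counts per Ensembl gene and cell, and a cell table of reads and detected genes which match each other for all 246 cells. Mapping metrics were left out. No molecular identifiers are named in the labels, so intervals and floors (3 reads, or 3 cells of the total) cover counting error only, and how reads shared by gene copies were counted is not given in the sources used here.

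Counts were summed by line and scaled to CPM of the line total, without correction for gene length. Log2 ratios used a pseudocount of 1 CPM, a minimum of 10 CPM in 1 or more of the lines compared, and a size of 4-fold. With 1 sample per line there is no test. Intervals are 95% exact Poisson for reads and exact binomial for shares and for folds. Shares of cells were repeated after thinning cells to 200000 reads, which left 47, 43, 36, 30, 32 and 41 cells of mpx_EGFP, cd41_GFPlow, Runx123_GFP, lck_GFP_rag1, lck_GFP and rag2_GFP. The ratio code and its 4-fold call were tested on simulated data, and the fold interval was checked on 1 fixed example only. Named were all members, list genes past 4-fold, their paralogs and the 5 genes most like gapdh and gapdhs. The last were taken among genes at 10 CPM in at least 10% of cells whose symbols are not clone names. The ALDOA and PFKP genes and hif1a were named after their values were seen. The members and lists were chosen with earlier results of these data known. Some list genes that the naming rule selects are not reported here. Symbols were matched exactly or without their last letter, and 2527 genes have no symbol. Tools were Python 3.11.15, numpy 2.4.6, pandas 2.3.3, scipy 1.17.1, matplotlib 3.10.9, R 4.3.3 and edgeR 4.0.16, the last for TMM factors only.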

Additional observations from a re-analysis of the deposited data

How the results depend on the processing

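The log2 ratio of gapdh to the mean of the other lines was 5.39 to 9.98 over 10 settings of cell weighting, depth, cell filter, scaling, pseudocount and reference, past 4-fold in each, and no gene named as a member and measured in all 6 lines changed sign. The ratios of ldha and pgk1 came as near to 0 as -0.0754 and -0.0142, with median-ratio size factors. The count of members lower by 4-fold went from 1 to 0 with a mean of per-cell CPM, with thinned cells, without each gene's top cell, with a pseudocount of 10 CPM, a filter of 50 CPM, a median of the other lines or an 8-fold size, since it rested on 1 cell. The count of members higher went from 1 to 2 at 2-fold. The count of glycolysis genes higher went from 3 to 6 with TMM factors, median-ratio size factors or the median of the other lines, and to 8 at 2-fold. The gapdh share in mpx_EGFP moved from 30.7% to 29.8% (mean of per-cell CPM), 29.9% (thinned cells), 29.5% (without the deepest cell) and 31.2% (cells with at least 1000 genes). The counts of higher genes of the glycogen list (5 to 7) and the pentose phosphate list (2 to 3) stayed within 1.5 times of 6 and 2 under 7 settings chosen after seeing the data. No paired analysis was possible because each line is 1 sample and cell numbers in the labels are well positions. The number of cells sets the upper limits on shares of 0 cells, and low genes such as hk1 rest on few cells.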
